A study of Mus musculus with 20 samples.

Results

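Colon fibroblasts of C57BL6/J mice that had been given irradiated APTKA medium, the medium conditioned by APTKA organoids in an arm with 5 fractions of 2 Gy, were compared with untreated fibroblasts. Each group held 4 libraries, so 8 of the series' 20 libraries enter the comparison, and all 47729 gene identifiers were considered, of which 14820 passed a filter on low counts. The cells of every group were grown as flat cultures on plastic in serum-containing Advanced DMEM F12, and conditioned medium was applied for 24 h. Plain APTKA medium, from the arm without irradiation, and irradiated APTK medium, from APTK organoids, had 4 libraries each and are used below only where they show how the irradiated APTKA libraries differ. The names APTK and APTKA are not expanded in the labels. Whether organoids or fibroblasts received the dose is not given either, and the labels hold neither an irradiated group without conditioned medium nor a group given unconditioned organoid medium. The comparison with untreated cells therefore joins medium, organoid products and irradiation, which cannot be told apart in it. The series' title places the work in rectal cancer, where fibroblasts in an inflammatory state are studied as a source of resistance to therapy.

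Fibroblasts build and remodel the collagen-rich matrix of the gut wall and feed the epithelium with growth factors. When signals such as interleukin 1 or tumour necrosis factor reach them, IκB proteins that hold the transcription factor NF-kB in the cytoplasm are degraded, NF-kB enters the nucleus, and genes for chemokines, cytokines and NF-kB's own inhibitors are transcribed. Separate programmes respond to other inputs. Interferons act through factors such as STAT2 and IRF9 on antiviral genes, shortage of amino acids acts through the kinase GCN2 and the factor ATF4 on amino acid transporters and synthesis enzymes, and DNA damage acts through p53 on cell cycle inhibitors.

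Reads assigned to genes numbered 25295735 to 31634843 per library in irradiated APTKA medium and 24070893 to 28520377 in untreated fibroblasts. Levels are given in CPM, a gene's reads scaled to a common library total with factors from the trimmed mean of M values (TMM), and fold changes as log2 of irradiated APTKA medium over untreated. A gene was called changed when the adjusted p of edgeR's quasi-likelihood test, fitted over all 5 groups and 14820 genes, was below 5%. Values after ± are standard deviations over the 4 libraries of a group, and lists of 4 values follow libraries I to IV. Whether the 4 libraries of a group stem from separate cultures or mice is not given, and p-values reflect library-to-library spread that may be no more than technical. Untreated library I differed from the other untreated libraries by a chi-square per degree of freedom of 32.8 to 41.6 against counting noise. Pairs of the others gave 9.78 to 17.4, and pairs of irradiated APTKA libraries 4.79 to 13.6. Without untreated library I, 8687 genes were called. The cause was not tested. The 20 most abundant genes held 15.6% to 17.05% of the reads in irradiated APTKA medium and 18.7% to 19.8% in untreated fibroblasts. The deposited tables do not state a strand setting, and several genes named below overlap another gene, so that their reads cannot be told apart from those of the partner. Among these are Rgs16, Spp1, Ch25h, Csf2, Il1a, Cxcl10, Ccn2, Tnc, Nrg1, Ereg, Wnt11, Tgfb2, Tgfbr3, Nr1d1, Psmb8, Psmb9, Erap1, Slc6a9, Pi15, Timp3, Mmp12, Eln, Mfap4, Pcolce, Cdkn1c, Foxm1, Bcl3, Jun, Gas6, Ackr4 and Brinp3. Reads of near-identical family members, such as the Ifit, Oas, Saa, Prl2c and histone genes, can be split between copies or dropped.

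The cultures carried the markers of fibroblasts. The 13 fibroblast markers summed to 37371 to 47678 CPM in irradiated APTKA medium and 63828 to 71766 CPM in untreated fibroblasts, and 11 of the 13 fell. In bulk RNA, fewer cells of a type and less RNA per cell cannot be told apart, here or in any result below. Markers of epithelium, leukocytes and endothelium were low. Epcam, which marks epithelium, had 3 reads over the 4 libraries of irradiated APTKA medium and 3 over those of untreated fibroblasts, and Krt8 had none in either. The 12 epithelial markers summed to 4.03 to 4.51 CPM and 5.32 to 6.12 CPM in these groups. The 10 leukocyte and macrophage markers summed to 4.96 to 5.94 CPM in irradiated APTKA medium and 9.04 to 9.52 CPM in untreated fibroblasts, with the pan-leukocyte gene Ptprc at 0 reads and 2 reads. The 10 neutrophil and mast cell markers summed to 0.288 to 0.776 CPM and 0.0391 to 0.302 CPM, the 9 lymphocyte markers to 3.06 to 3.98 CPM and 6.72 to 9.04 CPM, mostly reads of Trac, and the 10 endothelial markers to 2.45 to 2.85 CPM and 7.23 to 8.596 CPM. Erg, a transcription factor of endothelial cells, was the 1 endothelial marker with a large difference, at 0.144, 0.124, 0 and 0.107 CPM in irradiated APTKA medium, against 4.88, 4.18, 3.87 and 4.41 CPM in untreated fibroblasts. The 10 markers of pericytes and smooth muscle were not low, summing to 1633 to 2047 CPM in irradiated APTKA medium and 1769 to 2063 CPM in untreated fibroblasts, mostly the contractile genes Actg2 and Cnn1, and 2 of the 10 rose and 6 fell. Their part in the results was not tested. Abcc9 and Kcnj8, the subunits of a potassium channel of pericytes, fell to 2.49 ± 0.647 CPM and 1.57 ± 0.478 CPM in irradiated APTKA medium, against 17.6 ± 1.32 CPM and 12.9 ± 0.656 CPM in untreated fibroblasts. The 9 glial and neuronal markers summed to 116 to 132 CPM and 85.1 to 103 CPM, mostly Tubb3, the 6 adipocyte markers to 9.94 to 11.1 CPM and 14.5 to 17.97 CPM, the 5 mesothelial markers to 0.743 to 1.40 CPM and 0.604 to 1.195 CPM, and the 3 markers of interstitial cells of Cajal to 0.895 to 1.48 CPM and 1.28 to 2.16 CPM.

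Fibroblasts in irradiated APTKA medium expressed far more neutrophil chemokines, NF-kB inhibitors, serum amyloid and prostaglandin synthase than untreated fibroblasts, and far less of the interferon-stimulated genes and amino acid transporters. Small leucine-rich proteoglycans were lower as well, with a median log2 fold change of -1.04. In all, 9036 genes, 61.0% of those tested, changed, 4595 of them upward (31.0%) and 4441 downward (30.0%). A change of at least 2-fold was met by 690 genes upward (4.66%) and 1135 downward (7.66%), and 54 genes rose (0.364%) and 125 fell (0.843%) at least 8-fold. The median log2 fold change of all tested genes was -0.0057. The lowest and highest libraries of the groups did not overlap for 8507 genes, 57.4% of those tested. The first principal component of the 20 libraries, which held 56.4% of the variance, put the irradiated APTKA libraries at 46.7 to 52.7 and the untreated ones at -33.3 to -30.3. With more than 6 in 10 genes changed, the counts of the gene lists below are to be read against these shares.

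**Figure D1:**
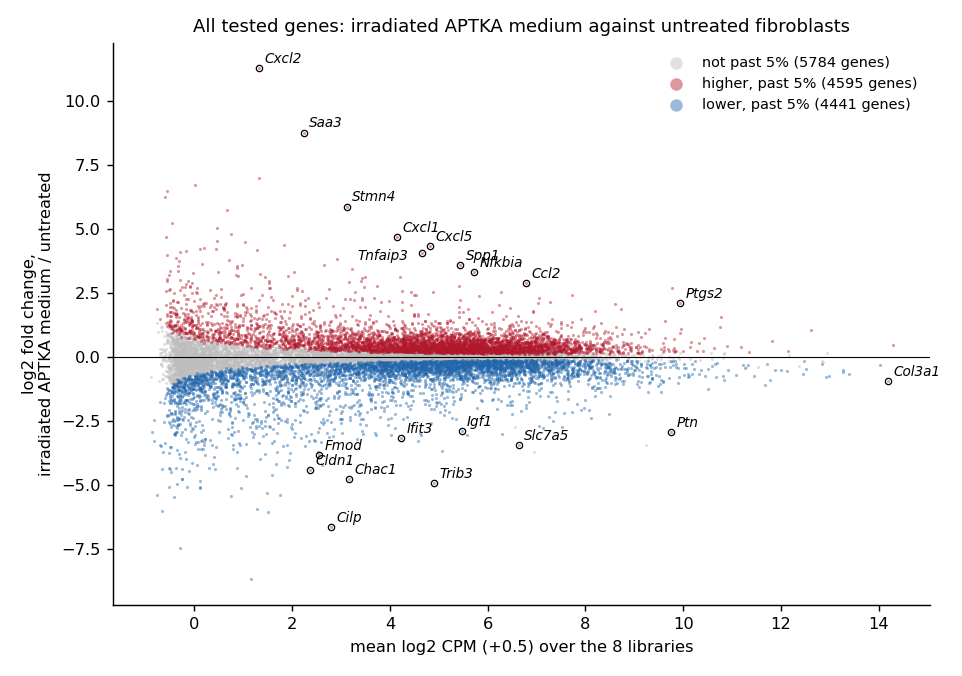
Each point is 1 of the 14820 tested genes, with its mean log2 CPM over the 8 libraries on the x axis and its log2 fold change, irradiated APTKA medium over untreated, on the y axis. Red points rose and blue points fell past 5%. Labelled genes are described in the text, and Cxcl2, which had 0 reads in untreated fibroblasts, is drawn at a fitted value that is no bound. The rises reach higher folds at middle levels, while Ptgs2 and Ptn are labelled abundant genes with large changes.

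The chemokines that draw neutrophils were the most strongly raised list. Of 7 members, 6 were tested, 5 rose and 1 fell, with a median log2 fold change of 4.50. Their windows of 250 bases before to 50 after the annotated start are given for Cxcl1 and Cxcl2, together with that of Nfkbia, the gene of the inhibitor IκBα, because these are among the largest rises and hold the NF-kB letters searched for. The motif was GGNNTTTCC on either strand, its matches are in capitals, and no overlapping matches occurred in these windows. The sequences are from RefSeq (GRCm38.p6) and run in the direction of transcription.
Cxcl1, chr5:90890995-90891294, plus strand: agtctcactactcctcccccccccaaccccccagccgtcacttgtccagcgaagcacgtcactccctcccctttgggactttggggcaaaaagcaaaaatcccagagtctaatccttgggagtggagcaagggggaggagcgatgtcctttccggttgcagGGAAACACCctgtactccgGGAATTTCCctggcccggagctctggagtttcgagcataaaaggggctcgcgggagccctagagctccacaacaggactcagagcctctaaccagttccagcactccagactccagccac
Cxcl2, chr5:90903649-90903948, plus strand: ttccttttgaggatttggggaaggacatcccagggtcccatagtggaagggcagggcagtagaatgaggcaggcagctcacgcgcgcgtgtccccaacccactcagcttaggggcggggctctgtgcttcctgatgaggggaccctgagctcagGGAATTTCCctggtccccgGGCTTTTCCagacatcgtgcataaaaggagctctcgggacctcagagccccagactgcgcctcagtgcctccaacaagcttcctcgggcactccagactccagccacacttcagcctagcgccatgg
Nfkbia, chr12:55492598-55492897, minus strand: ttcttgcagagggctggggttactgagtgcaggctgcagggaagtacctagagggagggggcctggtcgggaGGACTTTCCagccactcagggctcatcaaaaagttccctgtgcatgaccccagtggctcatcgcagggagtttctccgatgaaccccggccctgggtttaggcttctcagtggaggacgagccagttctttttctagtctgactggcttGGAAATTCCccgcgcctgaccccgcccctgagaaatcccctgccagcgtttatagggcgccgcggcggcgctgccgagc
The matches of Cxcl1 began 89 and 70 bases before the start, those of Cxcl2 96 and 77 bases before it, and those of Nfkbia 178 and 29 bases before it. The motif occurred in 5.82% of all 32851 windows, and in at least 1 window of 6.62% of 27025 genes. It was present for 3 of the 6 neutrophil chemokines with a window, for 3 of 6 monocyte chemokines and colony-stimulating factors, for 7 of 17 NF-kB subunits, kinases and inhibitors, and for 6 of 14 other NF-kB targets. A match describes the letters only and does not show binding.

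Cxcl1, a ligand of the neutrophil receptor CXCR2, had 76.7, 85.8, 88.2 and 80.8 CPM in irradiated APTKA medium, against 3.36, 2.93, 3.36 and 3.32 CPM in untreated fibroblasts. All 4 treated libraries lay above all 4 untreated ones, and the fold change on the log2 scale was 4.67 with an SE of 0.121 (adjusted p = 1.83e-20). Cxcl5, which binds the same receptor, had 123, 136, 121 and 102 CPM in irradiated APTKA medium, against 5.96, 5.995, 6.52 and 5.68 CPM in untreated fibroblasts, a log2 fold change of 4.32. Cxcl2, the third of this family, had 10.9, 12.1, 13.0 and 11.96 CPM in irradiated APTKA medium and 0 reads in each untreated library, and was at least 402-fold higher when the untreated group was set to the floor of 3 reads over its 4 libraries. Cxcl2 passed the filter through other groups and could not have counted as a fall. For Cxcl3 the 4 libraries together held 173 reads in irradiated APTKA medium and 1 read in untreated fibroblasts, a ratio of 153 after scaling, with a 95% counting interval of 27.1 to 6076. Ppbp, the platelet basic protein, rose to 5.66 ± 1.04 CPM, against 0.861 ± 0.200 CPM in untreated fibroblasts, whereas Cxcl15 was the member that fell, to 0.246 ± 0.0470 CPM against 0.962 ± 0.207 CPM.

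Chemokines for monocytes and colony-stimulating factors moved the same way. Of 11 members, 8 were tested, 6 rose and 1 fell. The rises include Csf2, which passed the filter through groups other than untreated fibroblasts and could not have counted as a fall. Ccl2, the main monocyte attractant, had 277, 336, 314 and 255 CPM in irradiated APTKA medium, against 33.5, 39.6, 41.2 and 47.9 CPM in untreated fibroblasts, with a log2 fold change of 2.86 (adjusted p = 4.44e-10, SE 0.181). Ccl7, which acts on the same receptor, rose to 323 ± 34.2 CPM in irradiated APTKA medium, against 73.4 ± 4.84 CPM in untreated fibroblasts. Csf1, the growth factor of macrophages, rose to 923 ± 82.7 CPM against 429 ± 16.6 CPM. The myeloid factors Csf2 and Csf3 stayed at low levels in irradiated APTKA medium, with 0.429 ± 0.0781 CPM for Csf2, which had 0 reads in untreated fibroblasts and was at least 14.4-fold higher over the floor of 3 reads, and 0.819 ± 0.202 CPM against 0.112 ± 0.0779 CPM for Csf3. Cx3cl1, the membrane-bound fractalkine, fell to 2.22 ± 0.809 CPM, against 8.61 ± 0.288 CPM. Of 14 lymphocyte and homeostatic chemokines and scavenging receptors, 6 were tested. Cxcl10, a T cell attractant, rose to 5.30 ± 0.540 CPM against 1.05 ± 0.331 CPM, Cxcl16 and the scavenger Ackr3 rose by log2 1.06 and 0.69, and Cxcl12 and Ackr4 fell with log2 fold changes of -0.58 and -2.98.

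The NF-kB system itself was raised from its subunits to its brakes. Among 21 subunits, kinases and inhibitors, all tested, 17 rose and 1 fell, with a median log2 fold change of 0.47. Tnfaip3, which encodes the ubiquitin-editing brake A20, had 87.4, 98.5, 105 and 105 CPM in irradiated APTKA medium, against 6.28, 5.995, 6.05 and 5.30 CPM in untreated fibroblasts. Nfkbia had 150.4, 162, 181 and 159 CPM in irradiated APTKA medium, against 16.2, 16.1, 16.6 and 17.4 CPM in untreated fibroblasts. Neither gene's groups overlapped, and the log2 fold changes were 4.07 (SE 0.0877) and 3.30 (SE 0.0727). The nuclear IκB proteins Bcl3, Nfkbiz and Nfkbid rose by log2 1.93, 1.53 and 1.61. Tnip3, an A20-binding protein, had 0.370 ± 0.146 CPM in irradiated APTKA medium and 0 reads in untreated fibroblasts. It passed the filter through other groups and could not have counted as a fall. The subunits themselves moved less, by log2 0.86 for Relb, 0.75 for Rela, 0.37 for Nfkb2 and 0.26 for Nfkb1, and the noncanonical kinase Map3k14 was the member that fell, by log2 fold change -0.55.

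Of 16 further NF-kB targets, all tested, 12 rose and 2 fell, with a median log2 fold change of 0.76. Traf1, an adaptor of tumour necrosis factor receptors, rose to 0.961 ± 0.0872 CPM in irradiated APTKA medium, against 0.0480 ± 0.0570 CPM in untreated fibroblasts. Icam1, which binds leukocyte integrins, had 25.5, 27.6, 29.9 and 24.00 CPM in irradiated APTKA medium, against 4.998, 3.75, 4.41 and 3.06 CPM in untreated fibroblasts, a log2 fold change of 2.72 (adjusted p = 5.46e-17, SE 0.117). Vcam1, the other adhesion molecule of the list, fell to 159 ± 11.9 CPM, against 249.2 ± 7.52 CPM. The stress genes Ier3 and Gadd45b rose by log2 1.75 and 1.24, the RNase gene Zc3h12a by 1.29, and the antiapoptotic Birc3 by 0.71.

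Interleukins showed no common direction. In the IL-6 family, 6 of 14 tested members rose and 5 fell, a balance that turned to 4 and 5 under upper quartile scaling. The ligands Il6, Lif and Il11 rose, Il6 to 3.41 ± 0.593 CPM in irradiated APTKA medium against 0.963 ± 0.147 CPM in untreated fibroblasts, Lif to 15.7 ± 2.43 CPM against 7.21 ± 1.26 CPM and Il11 to 3.35 ± 0.131 CPM against 1.68 ± 0.0964 CPM. Their shared receptor subunit gp130, encoded by Il6st, fell to 226 ± 11.96 CPM against 509 ± 46.6 CPM, as did Lifr and Jak2, with log2 fold changes of -0.80 and -0.86. Socs3, the feedback inhibitor of this pathway, did not pass the test, at 8.24 ± 0.798 CPM and 7.22 ± 1.52 CPM. In the IL-1 family, 4 of 14 tested members rose and 6 fell. Il1rl1, which encodes the IL-33 receptor ST2, had 56.4, 48.2, 57.6 and 46.8 CPM in irradiated APTKA medium, against 8.72, 10.5, 10.5 and 9.71 CPM in untreated fibroblasts. Its ligand gene Il33 went the other way, with 0.187 ± 0.0438 CPM in irradiated APTKA medium and 1.81 ± 0.295 CPM in untreated fibroblasts, a log2 fold change of -3.26. Il1a, the ligand of the IL-1 receptor, rose to 0.773 ± 0.321 CPM against 0.0417 ± 0.0611 CPM, while the receptor gene Il1r1 fell by log2 fold change -0.44.

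Acute-phase genes divided. Saa3, the serum amyloid made outside the liver in mice, had the largest rise among genes of at least moderate level, with 42.2, 63.6, 36.1 and 19.5 CPM in irradiated APTKA medium, against 0.0800, 0.173, 0 and 0.112 CPM in untreated fibroblasts. Its log2 fold change was 8.74 (adjusted p = 1.13e-07, SE 0.822), and the gene lies at chr7:46711998-46715700 (GRCm38). Of the 11 tested members of the list, 6 rose and 5 fell. Lbp and Cd14, which present bacterial lipopolysaccharide, rose by log2 1.74 and 1.65, and the receptor gene Tlr2 by 1.10. Ptx3, a pentraxin that NF-kB induces in many cells, fell to 8.44 ± 1.56 CPM in irradiated APTKA medium, against 66.5 ± 3.23 CPM in untreated fibroblasts, and the metallothioneins Mt1 and Mt2 fell to 12.6 ± 2.49 and 3.17 ± 1.01 CPM, against 36.5 ± 5.32 and 9.68 ± 1.57 CPM. Nos2, the inducible nitric oxide synthase, had 43 reads over the 4 irradiated APTKA libraries and 1 over the untreated ones, a ratio of 38.0 with a 95% counting interval of 6.47 to 1536. Of 11 tested complement genes, 1 rose and 7 fell. The riser was C3, the central component, at 3.23 ± 0.723 CPM against 0.233 ± 0.126 CPM, and C1s1, C1ra, C4b and the decay-accelerating factor Cd55 fell with log2 fold changes of -0.84, -0.71, -2.95 and -1.54.

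Prostaglandin and bradykinin genes rose in 9 of 15 tested cases and fell in 3. Ptgs2, the inducible cyclooxygenase, had 2007, 1741, 2127 and 2231 CPM in irradiated APTKA medium, against 457, 458, 449.9 and 535 CPM in untreated fibroblasts, a log2 fold change of 2.09 (adjusted p = 4.25e-18, SE 0.0795). The next enzyme, prostaglandin E synthase (Ptges), rose to 60.9 ± 2.31 CPM in irradiated APTKA medium, against 22.6 ± 2.30 CPM in untreated fibroblasts. Both bradykinin receptor genes rose, Bdkrb1 to 25.03 ± 3.66 CPM against 1.77 ± 0.406 CPM and Bdkrb2 to 22.8 ± 3.39 CPM against 3.02 ± 0.541 CPM. Ptgfr, the receptor for prostaglandin F, fell by log2 fold change -1.51.

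**Figure D2:**
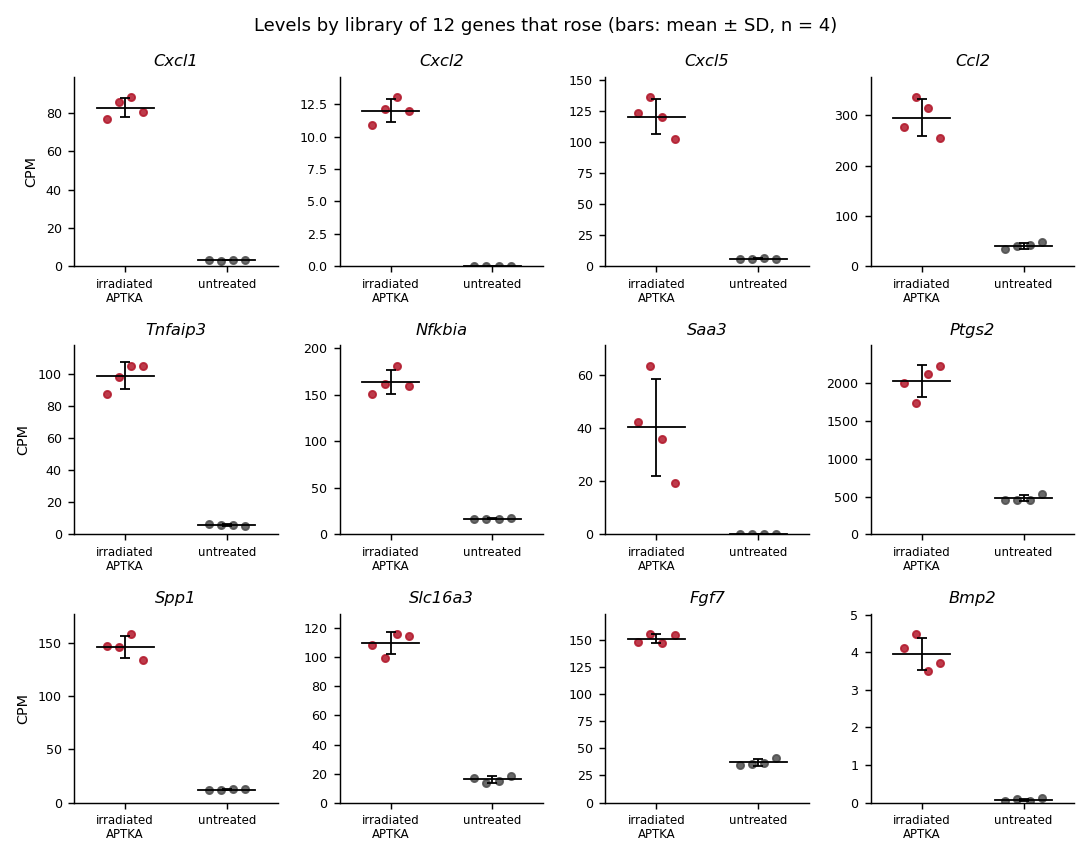
Levels in CPM of 12 genes that rose, by library, with irradiated APTKA medium on the left (red) and untreated fibroblasts on the right (grey). Each axis starts at 0, bars give the mean ± SD of 4 libraries, and in each panel the lowest irradiated APTKA library lies above the highest untreated one.

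The interferon-stimulated antiviral genes fell almost as a block. Of 31 members, all tested, 0 rose and 30 fell, with a median log2 fold change of -2.36 beside a share of 30.0% lower among all tested genes. At an unadjusted p below 0.05, 0 members were higher in edgeR and 0 in DESeq2. The windows of Ifit3 and Isg15 are shown because they hold the interferon-response letters GAAANNGAA on either strand, in capitals, for genes with large falls.
Ifit3, chr19:34583279-34583578, plus strand: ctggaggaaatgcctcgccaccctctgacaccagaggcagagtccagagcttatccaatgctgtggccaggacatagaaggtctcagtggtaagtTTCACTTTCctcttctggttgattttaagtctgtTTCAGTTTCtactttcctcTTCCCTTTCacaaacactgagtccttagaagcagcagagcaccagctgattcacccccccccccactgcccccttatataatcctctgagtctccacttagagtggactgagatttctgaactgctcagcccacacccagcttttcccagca
Isg15, chr4:156200769-156201068, minus strand: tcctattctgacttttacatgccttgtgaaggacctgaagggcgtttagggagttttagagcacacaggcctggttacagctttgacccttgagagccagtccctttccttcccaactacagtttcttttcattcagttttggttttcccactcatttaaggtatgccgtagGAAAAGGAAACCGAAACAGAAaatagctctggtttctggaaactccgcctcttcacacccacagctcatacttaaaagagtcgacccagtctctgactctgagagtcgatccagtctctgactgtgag
Ifit3 had 3 separate matches, which began 155, 121 and 102 bases before the start, and Isg15 had 3 overlapping matches, beginning 78, 72 and 66 bases before it. The motif occurred in 8.56% of all windows and for 13 of the 21 members with a window, against 9.76% of all genes.

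Ifit3, of the interferon-induced Ifit family, had 5.58, 7.96, 6.21 and 4.37 CPM in irradiated APTKA medium, against 58.2, 48.7, 59.6 and 52.7 CPM in untreated fibroblasts. The groups lay far apart, with a log2 fold change of -3.17 (adjusted p = 1.46e-06, SE 0.370). Isg15, a ubiquitin-like modifier, had 0.8285, 2.11, 1.36 and 1.15 CPM in irradiated APTKA medium, against 9.996, 10.2, 7.499 and 6.61 CPM in untreated fibroblasts, a log2 fold change of -2.62. Rsad2, which makes an antiviral nucleotide, had 1.15, 0.805, 2.25 and 0.645 CPM in irradiated APTKA medium, against 6.72, 4.18, 5.70 and 4.82 CPM in untreated fibroblasts, and its irradiated APTKA libraries spread more than those of Ifit3 in relation to their mean. The signalling genes fell as well, Stat2 to 16.2 ± 2.53 CPM in irradiated APTKA medium against 51.0 ± 2.66 CPM in untreated fibroblasts, and Irf7 and Irf9 by log2 fold changes of -1.61 and -0.62. Oasl2, Ifi44 and Ddx60 fell with log2 fold changes of -3.34, -2.97 and -3.08. Oasl1 was the member that did not pass, at 0.785 ± 0.190 CPM and 1.196 ± 0.285 CPM. Oas2 held 2 reads over the irradiated APTKA libraries and 47 over the untreated ones. In the list of MHC class I presentation, 0 of 11 members rose and 7 fell, and 0 were higher at an unadjusted p below 0.05 in edgeR or DESeq2. The immunoproteasome subunits Psmb8, Psmb9 and Psmb10 fell with log2 fold changes of -1.52, -1.38 and -1.46, the peptide trimmer Erap1 with -1.71 and the light chain B2m with -0.62. The heavy chain gene H2-K1 did not pass the test, at 84.3 ± 2.83 CPM in irradiated APTKA medium and 81.6 ± 3.52 CPM in untreated fibroblasts.

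Genes of amino acid supply fell as completely. Of 25 transporters and enzymes of serine, one-carbon and related synthesis, 24 were tested, 0 rose and 23 fell, with a median log2 fold change of -1.63. At an unadjusted p below 0.05 no member was higher in edgeR or DESeq2. Slc7a5, the large neutral amino acid transporter, had 30.7, 30.5, 29.9 and 27.7 CPM in irradiated APTKA medium, against 356, 314, 312 and 322 CPM in untreated fibroblasts. The log2 fold change was -3.46 (adjusted p = 4.96e-21, SE 0.0854). Mthfd2, a mitochondrial one-carbon enzyme, fell to 16.4 ± 1.73 CPM in irradiated APTKA medium, against 136 ± 5.96 CPM in untreated fibroblasts. The cystine transporter gene Slc7a11 fell to 4.33 ± 0.431 CPM against 34.1 ± 1.24 CPM, the glycine transporter gene Slc6a9 to 4.28 ± 0.256 CPM against 35.5 ± 1.95 CPM, and cystathionine lyase Cth to 2.64 ± 0.313 CPM against 20.7 ± 2.62 CPM. The serine pathway enzymes Phgdh, Psat1 and Psph fell with log2 fold changes of -1.91, -1.71 and -1.86, and asparagine synthetase Asns with -1.14.

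Genes of the integrated stress response were lower too. Of 17 regulators and effectors of the integrated stress response, 2 rose and 13 fell. Trib3, a pseudokinase induced by ATF4, had 4.21, 5.201, 5.70 and 5.87 CPM in irradiated APTKA medium, against 173, 172, 183 and 114 CPM in untreated fibroblasts, a log2 fold change of -4.93 (adjusted p = 5.06e-10, SE 0.303). Chac1, a glutathione-degrading enzyme, had 1.80, 1.24, 1.67 and 1.25 CPM in irradiated APTKA medium, against 35.7, 41.3, 45.3 and 39.8 CPM in untreated fibroblasts, a log2 fold change of -4.77. Atf4 itself fell less, to 308 ± 13.3 CPM in irradiated APTKA medium against 459.5 ± 22.9 CPM in untreated fibroblasts, and Atf5 and Ddit3, which encodes CHOP, fell with log2 fold changes of -2.23 and -1.38. The 2 members that rose were the stress factor Atf3, with 19.7 ± 3.53 CPM against 4.21 ± 0.369 CPM, and the phosphatase subunit Ppp1r15a, by log2 0.52. Of 20 cytosolic tRNA synthetases, 6 rose and 12 fell. Cars, Aars and Eprs fell with log2 fold changes of -1.15, -1.07 and -0.94, while both phenylalanine subunits, Farsa and Farsb, rose by 0.57 and 0.53. Of 22 genes of folding and degradation in the endoplasmic reticulum, 1 rose and 19 fell. The chaperone gene Hspa5 fell to 675 ± 10.7 CPM against 1354 ± 48.5 CPM, Calr to 548 ± 26.7 CPM against 1081 ± 82.6 CPM and Herpud1, of the degradation machinery, to 56.8 ± 1.39 CPM against 209.8 ± 16.9 CPM. The ATF4-responsive letters TGATGNAAT were found for 2 of 16 stress response genes with a window and for 1 of 19 amino acid genes, against 1.08% of all genes.

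**Figure D3:**
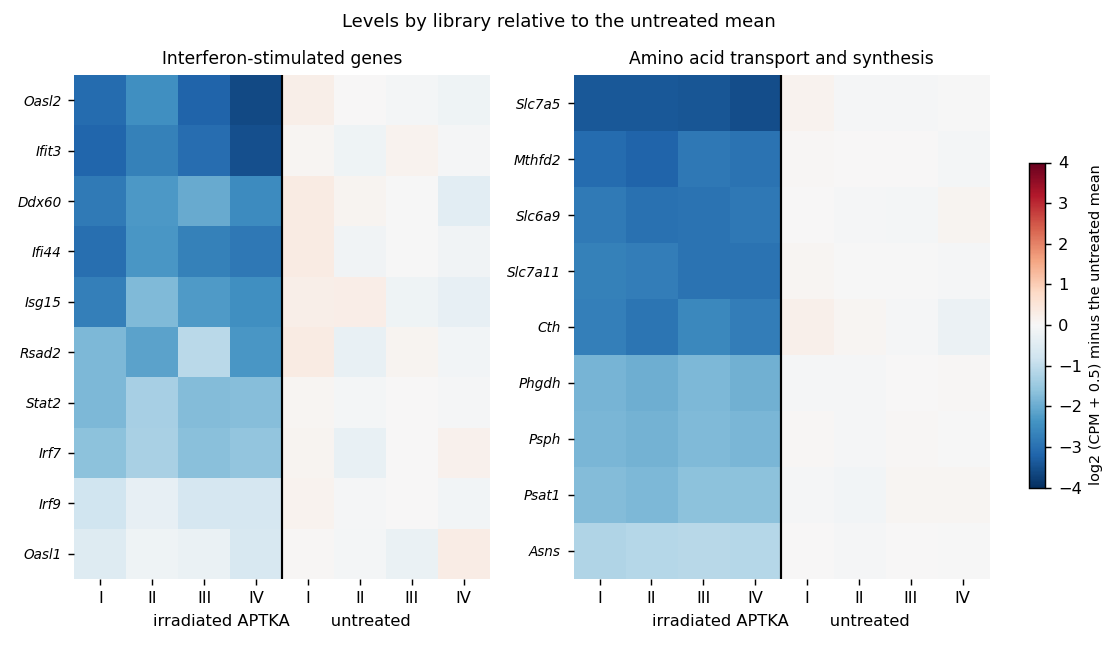
Levels by library of the tested members of the interferon-stimulated list (left) and the amino acid list (right) that the text gives with values, as log2 (CPM + 0.5) minus the mean of the 4 untreated libraries, with irradiated APTKA libraries I to IV left of the line and untreated libraries I to IV right of it. Blue is lower and red is higher. Members are ordered by fitted fold change, and low genes look paler than their fold change because of the offset of 0.5 CPM.

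Sterol and lysosome genes were lower. Of 25 genes of cholesterol synthesis and uptake, 0 rose and 23 fell, with a median log2 fold change of -0.68. No member was higher at an unadjusted p below 0.05 in edgeR or DESeq2. Insig1, the sterol sensor's anchor, fell to 17.4 ± 0.890 CPM in irradiated APTKA medium, against 58.5 ± 12.7 CPM in untreated fibroblasts, and the monooxygenase gene Sqle to 34.7 ± 2.03 CPM against 92.6 ± 8.03 CPM. The sterol-response letters TCACNCCAC were found for 1 of 17 members with a window, against 1.44% of all genes. Of 11 fatty acid genes, 1 rose and 8 fell, with the desaturase gene Scd2 at 259 ± 18.04 CPM against 519 ± 40.4 CPM. Of 24 lysosomal genes, 2 rose and 19 fell. Ctsk, a collagen-degrading cathepsin, fell to 67.1 ± 2.95 CPM against 163 ± 10.5 CPM, and Lamp1 and Lamp2, the main membrane proteins, fell with log2 fold changes of -0.71 and -0.94.

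Antioxidant genes under the factor NRF2 were mostly lower, with 5 of 21 members raised and 12 lowered. Hmox1, the haem oxygenase, fell to 143 ± 3.18 CPM in irradiated APTKA medium, against 289.5 ± 23.6 CPM in untreated fibroblasts, the ferritin heavy chain Fth1 to 198 ± 5.34 CPM against 458 ± 15.7 CPM, and the glutathione synthesis subunit Gclm to 18.3 ± 0.909 CPM against 50.4 ± 2.25 CPM. Gsta4, a glutathione transferase, rose to 15.7 ± 1.53 CPM against 10.5 ± 1.56 CPM. Glycolysis and hypoxia response genes went upward, with 20 of 30 raised and 3 lowered. Slc16a3, the lactate exporter MCT4, had 109, 99.5, 116 and 115 CPM in irradiated APTKA medium, against 16.99, 13.6, 14.9 and 18.6 CPM in untreated fibroblasts, a log2 fold change of 2.77 (adjusted p = 1.29e-14, SE 0.115). Egln3, an oxygen-sensing hydroxylase, rose by log2 2.27, Bnip3 by 1.58, Vegfa, the vascular growth factor, by 1.21, and the glycolytic enzymes Tpi1 and Ldha by 1.14 and 1.01. Ndrg1, which hypoxia induces in many cells, fell to 59.0 ± 4.23 CPM against 127 ± 5.56 CPM.

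Genes of the p53 pathway divided, with 17 of 34 targets raised and 7 lowered and a median log2 fold change of 0.20. Mdm2, the p53 ubiquitin ligase and itself a p53 target, had 463, 475, 479 and 446 CPM in irradiated APTKA medium, against 283, 312, 302 and 255 CPM in untreated fibroblasts. Cdkn1a, which encodes the cell cycle inhibitor p21, had 279, 262, 294 and 265 CPM in irradiated APTKA medium, against 201, 174, 174 and 159 CPM in untreated fibroblasts. Both sets of libraries were apart, with log2 fold changes of 0.69 (adjusted p = 1.29e-09, SE 0.0688) and 0.64 (adjusted p = 6.49e-09, SE 0.0686). The proapoptotic Pmaip1, encoding NOXA, rose by log2 1.49 and the antiproliferative Btg2 by 1.25, whereas Bbc3, encoding PUMA, and Sesn2, which ATF4 also induces, fell with log2 fold changes of -1.02 and -1.05. Ccng1, an abundant direct target, did not pass the test, at 1249 ± 22.1 CPM in irradiated APTKA medium and 1371 ± 51.4 CPM in untreated fibroblasts (log2 fold change -0.13, SE 0.0609). Trp53 itself had 27.5 ± 2.96 CPM in irradiated APTKA medium and 20.9 ± 4.04 CPM in untreated fibroblasts. Of 28 damage signalling and repair genes, 8 rose and 8 fell, near the shares of all genes. The damage kinases Atm and Chek2 fell with log2 fold changes of -0.79 and -0.70, and Trp53bp1 rose by 0.53. Against plain APTKA medium, edgeR called 0 of the 34 p53 targets and 0 of the 28 damage and repair genes, beside 0.729% of all tested genes. At that share, lists of this size can hold no call without standing apart from all genes. The median log2 fold changes of these lists over plain APTKA medium were -0.04 and -0.11. A miss of the threshold does not show that the media act alike.

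Replication genes were more often higher than lower and mitotic genes were not. Of 37 replication and S-phase genes, 19 rose and 5 fell. The helicase subunit Mcm3 rose to 16.7 ± 0.355 CPM in irradiated APTKA medium, against 8.63 ± 0.471 CPM in untreated fibroblasts, and the primase Prim1 rose by log2 0.86, whereas Pcna, the polymerase clamp, fell to 11.6 ± 0.307 CPM against 16.2 ± 1.496 CPM. Of 29 mitotic genes, 3 rose, 8 fell and 18 did not pass. Mki67, the proliferation marker, had 11.0, 9.04, 8.42 and 9.60 CPM in irradiated APTKA medium, against 12.04, 10.1, 7.73 and 10.2 CPM in untreated fibroblasts, ranges that overlapped, with a log2 fold change of -0.07 (adjusted p = 0.685, SE 0.146). Foxm1, a mitotic transcription factor, fell by log2 fold change -1.33. Of 14 CDK inhibitors and senescence-associated nuclear genes, 2 rose and 9 fell. Cdkn1c fell to 5.36 ± 0.311 CPM against 44.5 ± 1.60 CPM, Cdkn2a to 70.2 ± 2.44 CPM against 111 ± 8.44 CPM and Cdkn2b to 76.0 ± 6.27 CPM against 104 ± 4.77 CPM. Lmnb1, a nuclear lamin, fell to 6.44 ± 0.333 CPM against 12.5 ± 1.22 CPM. With Cdkn1a the only cyclin-dependent kinase inhibitor of the list that rose, the members moved in different directions.

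The matrix genes were mostly lower. Of 44 collagen genes, 38 were tested, 6 rose and 26 fell, with a median log2 fold change of -0.71. Col3a1 had 13722, 16432, 13239 and 11030.3 CPM in irradiated APTKA medium, against 25201, 27584, 26793 and 25807 CPM in untreated fibroblasts, a log2 fold change of -0.95 (adjusted p = 5.28e-10, SE 0.0865). Col1a1 had 9104, 8833, 8102 and 7179 CPM in irradiated APTKA medium, against 11890.1, 14574, 10643 and 10720.2 CPM in untreated fibroblasts, a log2 fold change of -0.53 (adjusted p = 0.00112). Col8a2 and Col14a1 fell with log2 fold changes of -4.09 and -2.37, the microfibril collagens Col6a1 and Col6a2 with -1.37 and -1.68, and Col11a1, a fibril nucleator, with -2.06. Among the risers, Col12a1, which decorates collagen fibrils, was the abundant one, at 1804 ± 130.1 CPM in irradiated APTKA medium and 1418 ± 82.8 CPM in untreated fibroblasts. Of 19 genes of collagen modification and folding, 3 rose and 13 fell. Serpinh1, the collagen chaperone HSP47, fell to 2230.1 ± 75.9 CPM against 4836 ± 395 CPM, Lox, the crosslinking oxidase, to 4487 ± 117 CPM against 7076 ± 428 CPM, and Pcolce, an enhancer of procollagen cleavage, to 363 ± 5.40 CPM against 817 ± 8.47 CPM. Adamts14, a procollagen protease, rose by log2 1.07.

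Of 17 elastic fibre and microfibril genes, 1 rose and 12 fell, with Eln, the elastin gene, at 5.33 ± 1.49 CPM in irradiated APTKA medium and 23.6 ± 4.67 CPM in untreated fibroblasts, Fbln5 at 120.0 ± 7.96 CPM and 426 ± 34.3 CPM, and Mfap4 at 0.824 ± 0.202 CPM and 11.1 ± 1.47 CPM. The small leucine-rich proteoglycans, which coat collagen fibrils, had 0 members raised and 10 of 11 tested lowered, and none was higher at an unadjusted p below 0.05 in edgeR or DESeq2. Fmod, fibromodulin, had 1.51, 1.55, 1.44 and 0.788 CPM in irradiated APTKA medium, against 21.9, 20.7, 18.04 and 15.2 CPM in untreated fibroblasts, a log2 fold change of -3.83. Prelp and Podn fell with log2 fold changes of -3.24 and -2.68, decorin (Dcn) to 1342 ± 216 CPM against 2501 ± 235 CPM and lumican (Lum) to 25.5 ± 7.28 CPM against 65.4 ± 8.33 CPM. Cilp, a secreted protein of cartilage and of activated fibroblasts, showed the largest fall among genes of at least moderate level, with 0.540, 0.433, 0.272 and 0.681 CPM in irradiated APTKA medium, against 50.1, 45.6, 51.1 and 49.6 CPM in untreated fibroblasts. Its log2 fold change was -6.65 (adjusted p = 2.05e-22, SE 0.160), and it lies at chr9:65265180-65280605 (GRCm38).

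Matricellular and protease genes moved in both directions, as did all tested genes, of which 31.0% were higher and 30.0% lower. Of 18 tested matricellular and adhesive proteins, 6 rose and 8 fell. Tnc, tenascin C, had 9369, 9758, 8799 and 8231 CPM in irradiated APTKA medium, against 4237, 4383, 4258 and 4589.8 CPM in untreated fibroblasts, a log2 fold change of 1.05. Tnn, its relative tenascin N, rose to 10.6 ± 1.78 CPM in irradiated APTKA medium, against 0.0805 ± 0.0934 CPM in untreated fibroblasts. Spp1, osteopontin, had 147, 146, 159 and 134 CPM in irradiated APTKA medium, against 11.7, 12.1, 12.5 and 12.9 CPM in untreated fibroblasts, a log2 fold change of 3.57 (SE 0.378), and Ccn2, connective tissue growth factor, rose by log2 1.57. The related Ccn3 and Ccn5 fell with log2 fold changes of -4.17 and -0.98, as did Thbs2, an antiangiogenic thrombospondin, with -1.20, while Thbs1 rose by 0.46. Of 18 metalloproteinases and inhibitors, 6 rose and 9 fell. The secreted proteases Mmp3, Mmp10, Mmp13, Mmp12 and Mmp9 rose by log2 4.15, 2.96, 2.68, 2.40 and 2.31. Mmp9, a gelatinase, had 29.8, 35.0, 23.7 and 20.7 CPM in irradiated APTKA medium, against 5.84, 5.13, 5.39 and 5.68 CPM in untreated fibroblasts. Mmp2, the other gelatinase, fell to 84.96 ± 14.3 CPM, against 167 ± 17.7 CPM, Mmp11 fell by log2 fold change -1.55 and Timp3, a matrix-bound inhibitor, by -2.50, whereas Timp1 rose by 1.07.

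Of 6 tested genes of plasminogen activation, 1 rose and 3 fell. Of 12 tested hyaluronan genes, 5 rose and 3 fell. Cd44, the hyaluronan receptor, rose to 404 ± 24.4 CPM in irradiated APTKA medium, against 144 ± 11.9 CPM in untreated fibroblasts, the depolymerase gene Cemip by log2 1.11 and the synthase gene Has2 by 0.59. Contractile genes were balanced, with 8 of 19 raised and 8 lowered and a median log2 fold change of 0.03 that turned to -0.03 under upper quartile scaling. Acta2, smooth muscle actin and a myofibroblast marker, had 3044, 2645, 3039 and 3519.7 CPM in irradiated APTKA medium, against 3826, 3318, 3802 and 4119 CPM in untreated fibroblasts, and its ranges overlapped, with a log2 fold change of -0.30 (adjusted p = 9.96e-04). Myh9, nonmuscle myosin, rose by log2 0.61 and Mylk, the myosin kinase, fell by log2 fold change -0.85.

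**Figure D4:**
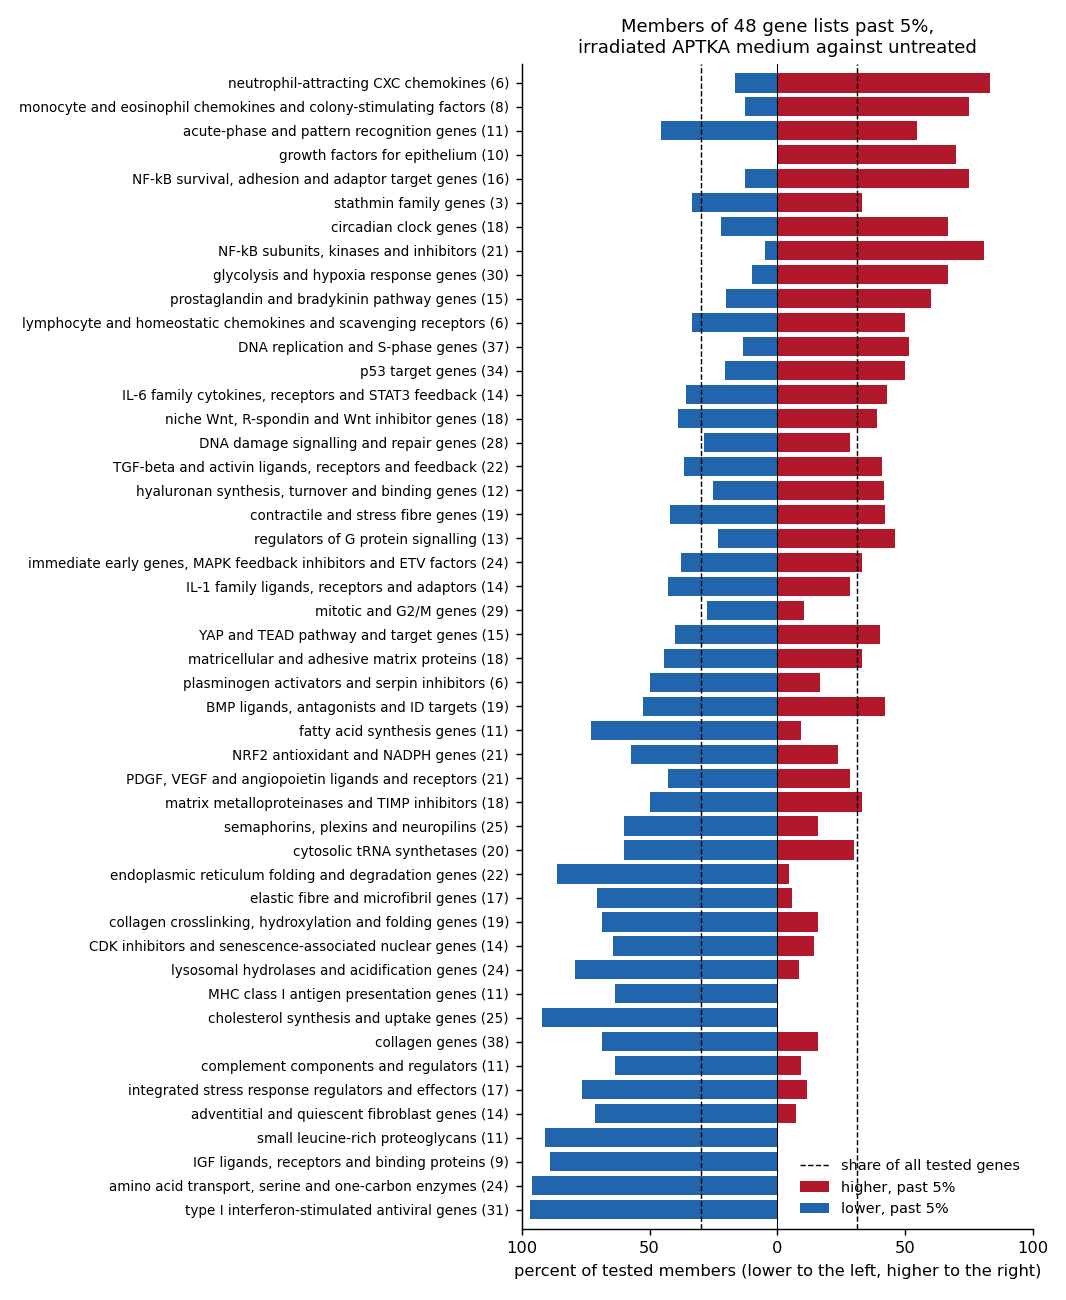
For each of 48 gene lists, ordered by the median log2 fold change with the highest on top, red bars to the right give the percent of tested members that rose past 5% and blue bars to the left the percent that fell, with the number tested in parentheses. Dashed lines mark the shares of all 14820 tested genes, 31.0% higher and 30.0% lower. Interferon-stimulated, amino acid, insulin-like growth factor and proteoglycan lists lie at the bottom with hardly any red.

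The lists of signalling ligands differed in direction, beside shares of 31.0% higher and 30.0% lower among all tested genes. Of 10 tested growth factors for epithelium, 7 rose and 0 fell, with a median log2 fold change of 0.96, and none was lower at an unadjusted p below 0.05 in edgeR or DESeq2. Fgf7, keratinocyte growth factor, had 148, 155, 147 and 154 CPM in irradiated APTKA medium, against 34.7, 35.7, 36.8 and 41.5 CPM in untreated fibroblasts, a log2 fold change of 2.02 (adjusted p = 1.09e-15, SE 0.0883). Nrg1, a ligand of ERBB receptors, rose to 169.7 ± 9.005 CPM in irradiated APTKA medium, against 45.4 ± 4.54 CPM in untreated fibroblasts, and Ereg, a ligand of the EGF receptor, to 30.0 ± 3.19 CPM against 11.3 ± 0.820 CPM. Of 9 tested genes of the insulin-like growth factor system, 0 rose and 8 fell, with none higher at an unadjusted p below 0.05 in edgeR or DESeq2. Igf1 had 17.3, 14.8, 15.7 and 16.2 CPM in irradiated APTKA medium, against 127, 133, 116 and 99.5 CPM in untreated fibroblasts, a log2 fold change of -2.89, and its binding proteins Igfbp4 and Igfbp5 fell by log2 fold changes of -2.09 and -1.91. Of 21 genes of the PDGF, VEGF and angiopoietin families, 6 rose and 9 fell. Pdgfb rose to 1.77 ± 0.281 CPM against 0.0879 ± 0.0554 CPM and Angptl4 by log2 1.77, whereas Vegfd and Angpt1 fell by log2 fold changes of -2.59 and -2.92. The receptor genes Pdgfra and Pdgfrb fell to 61.0 ± 5.41 and 443 ± 5.49 CPM, against 81.4 ± 5.85 and 889.9 ± 4.62 CPM.

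In the TGF-beta and activin list, 9 of 22 members rose and 8 fell, and upper quartile scaling gave 8 of each. Ligand genes moved apart. Inhbb and Inhba, the activin subunits, rose by log2 2.55 and 1.42 and Tgfb2 by 1.76, Tgfb1 did not pass the test, at 18.2 ± 2.38 CPM in irradiated APTKA medium and 17.8 ± 2.74 CPM in untreated fibroblasts, and Tgfb3 and the receptor genes Tgfbr1 and Acvr2a fell by log2 fold changes of -0.77, -0.69 and -1.71. In the BMP list, 8 of 19 tested members rose and 10 fell. Bmp2 had 4.11, 4.49, 3.49 and 3.73 CPM in irradiated APTKA medium, against 0.0400, 0.0863, 0.0391 and 0.112 CPM in untreated fibroblasts, a log2 fold change of 5.74 (adjusted p = 1.17e-10, SE 0.455). The antagonist Grem1, which keeps the crypt niche free of BMP signal, rose by log2 0.73, and the antagonists Chrd and Chrdl1 fell with -1.88 and -3.43. Of 18 tested Wnt and R-spondin genes, 7 rose and 7 fell. Wnt11 rose by log2 2.69 and the inhibitor gene Dkk2 by 1.27, and Wnt5a, Sfrp1 and the R-spondin gene Rspo3, which sustains intestinal stem cells, fell by log2 fold changes of -1.03, -1.70 and -0.59. Gdf15, a stress ligand of the wider family, rose to 11.5 ± 3.02 CPM in irradiated APTKA medium, against 7.25 ± 1.24 CPM in untreated fibroblasts.

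Of 24 tested immediate early genes and MAP kinase feedback genes, 8 rose and 9 fell. The AP-1 subunits divided. Jun, Fosl2 and Junb rose by log2 1.16, 0.76 and 0.65, and Fos and Fosb fell with log2 fold changes of -2.55 and -1.05. The phosphatases Dusp5 and Dusp4 rose by 1.68 and 1.46 and Dusp6, which acts on ERK in the cytoplasm, fell by log2 fold change -1.10. Of 15 genes of the YAP and TEAD pathway, 6 rose and 6 fell, with Ankrd1, a mechanosensitive target, at 273 ± 29.5 CPM in irradiated APTKA medium and 63.0 ± 7.94 CPM in untreated fibroblasts. Of 13 tested regulators of G protein signalling, 6 rose and 3 fell. Rgs16 had 23.1, 25.5, 31.0 and 32.4 CPM in irradiated APTKA medium, against 2.28, 2.54, 2.69 and 2.95 CPM in untreated fibroblasts, a log2 fold change of 3.41. Of 25 tested semaphorins, plexins and neuropilins, 4 rose and 15 fell, with Sema5a, an axon guidance ligand, at 1.18 ± 0.178 CPM against 22.2 ± 3.64 CPM. Stmn4, a stathmin that destabilises microtubules and is otherwise a brain gene, had 54.4, 51.4, 54.7 and 51.9 CPM in irradiated APTKA medium, against 0.840, 0.863, 1.02 and 0.896 CPM in untreated fibroblasts. The log2 fold change was 5.87 (adjusted p = 3.41e-23, SE 0.132). Of the other 2 tested stathmins, Stmn1 fell by log2 fold change -1.04 and Stmn2 did not pass.

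Genes of adventitial and quiescent fibroblasts were lower, with 1 of 14 tested members raised and 10 lowered. Gas6, a ligand of TAM receptors, fell to 164 ± 11.7 CPM in irradiated APTKA medium, against 770.4 ± 30.0 CPM in untreated fibroblasts, Dpt, dermatopontin, to 33.9 ± 2.97 CPM against 83.7 ± 5.78 CPM, and Ly6a to 2.06 ± 0.687 CPM against 9.31 ± 0.318 CPM. Scara5, a ferritin receptor, had 0 reads in each irradiated APTKA library and 0.640, 0.561, 1.13 and 1.08 CPM in untreated fibroblasts. Of 18 circadian clock genes, 12 rose and 4 fell, with Nr1d1, the repressor REV-ERB alpha, at 21.0 ± 1.54 CPM against 5.37 ± 1.10 CPM and Arntl, the BMAL1 gene it represses, lower by log2 fold change -0.26.

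Other large changes belonged to none of the lists. Ivl, the cornified envelope protein involucrin, had 18.05, 14.5, 20.7 and 22.6 CPM in irradiated APTKA medium, against 1.60, 1.121, 2.15 and 1.42 CPM in untreated fibroblasts, a log2 fold change of 3.58. Ch25h, which makes the immune oxysterol 25-hydroxycholesterol, rose to 10.6 ± 1.76 CPM in irradiated APTKA medium, against 1.08 ± 0.430 CPM in untreated fibroblasts. Thsd1, Cmah, which makes the sialic acid Neu5Gc, and Prl2c3, of the proliferin family, rose by log2 3.13, 3.11 and 3.06. Downward, Cldn1, a tight junction protein, had 0.756, 1.15, 0.931 and 0.681 CPM in irradiated APTKA medium, against 23.0, 20.2, 18.4 and 15.5 CPM in untreated fibroblasts, a log2 fold change of -4.43. Reps2, Abca8a, Abca9, Pi15 and Ifit3b fell with log2 fold changes of -3.70, -3.49, -3.27, -3.30 and -3.29. Ptn, the growth factor pleiotrophin, was an abundant gene with a large fall, with 324, 372, 285 and 263 CPM in irradiated APTKA medium, against 2439, 2463, 2509 and 2192 CPM in untreated fibroblasts, a log2 fold change of -2.95 (adjusted p = 1.60e-18, SE 0.0942). The filamin Flnc, which crosslinks actin, rose by log2 1.09, and the secreted matrix protein Ccdc80 fell by log2 fold change -1.27.

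The irradiated arm was also compared directly with plain APTKA medium, a comparison that shares no untreated library. The labels name no batch, so the dose cannot be told apart in it from any other difference between the 2 arms. The comparison found 108 changed genes, 0.729% of those tested, 67 of them higher in irradiated APTKA medium (0.452%) and 41 lower (0.277%), and 9 changed at least 2-fold (0.0607%). An unadjusted p below 0.05 in edgeR was met by 1861 of the 14820 tested genes, in either direction. The unadjusted counts of list members against plain APTKA medium are to be read beside this number. The count changed with the omission of 1 library and with the model. Upper quartile scaling split the calls into 47 higher and 47 lower. The total was 307 with DESeq2 and 512 when the 2 groups were fitted alone, and it was 37, 44 and 56 without irradiated APTKA library I, III or IV and 40, 34 and 35 without plain APTKA library II, III or IV. No neutrophil chemokine and no prostaglandin gene passed 5% in edgeR or DESeq2, and 1 and 3 members had an unadjusted p below 0.05 in each tool. Of the 16 NF-kB targets edgeR called 0 and DESeq2 2, both lower, with 3 lower at an unadjusted p below 0.05 in either tool. Of the 31 interferon-stimulated genes edgeR called 0 and DESeq2 5, all lower in irradiated APTKA medium, and at an unadjusted p below 0.05 edgeR had 18 lower and 0 higher and DESeq2 22 lower and 0 higher. For Cxcl1 the difference from plain APTKA medium was -0.14 on the log2 scale (SE 0.0887), for Tnfaip3 -0.24 (SE 0.0691), for Saa3 -0.69 (SE 0.363) and for Isg15 -1.36 (adjusted p = 0.138, SE 0.399), and a miss of the threshold does not show that the media act alike.

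The genes that did differ had several patterns beside the untreated level. Aldh1a3, a retinaldehyde dehydrogenase, had 132, 109, 138 and 135 CPM in irradiated APTKA medium, 87.6, 61.6, 67.8 and 62.3 CPM in plain APTKA medium and 21.2, 25.4, 25.1 and 26.7 CPM in untreated fibroblasts, with a log2 fold change of 0.88 over plain APTKA medium (adjusted p = 3.81e-04, SE 0.110). Nqo1, the NRF2 target quinone reductase, averaged 47.9 ± 3.51 CPM in irradiated APTKA medium, 28.1 ± 2.08 CPM in plain APTKA medium and 67.0 ± 7.19 CPM in untreated fibroblasts, so that its level in irradiated APTKA medium lay between the other 2. Of the 21 NRF2 genes, edgeR called 4 higher than in plain APTKA medium and 0 lower. These were Nqo1, Gsta4, Gclm and G6pdx, by log2 0.77, 0.68, 0.41 and 0.27. DESeq2 called 5 higher and 0 lower. At an unadjusted p below 0.05, 13 were higher and 0 lower in each tool. In edgeR, 1861 of all 14820 tested genes met that level, in either direction. Slc7a11, also under NRF2, was higher by 0.61, although both media lay far below the untreated level. Brinp3, Lrrc4c, Gpr137b and Dact1 were higher by 0.61, 0.54, 0.52 and 0.51.

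Spry2, a feedback inhibitor of growth factor receptors, had 51.9, 70.6, 59.7 and 61.4 CPM in irradiated APTKA medium, 99.2, 103, 109 and 102 CPM in plain APTKA medium and 66.1, 57.6, 62.9 and 62.7 CPM in untreated fibroblasts. It was lower than in plain APTKA medium (log2 fold change -0.76, SE 0.0865, adjusted p = 6.26e-05), and its libraries overlapped those of untreated fibroblasts. Gdf6, a BMP-family ligand, was lower by log2 fold change -0.75. Genes of dividing cells were among the lower ones. The linker histone genes Hist1h1b and Hist1h1a were lower by -0.61 and -0.60, the mitotic gene Cdca2 by -0.56 and the replication helicase Mcm2 by -0.50. Of the 37 replication genes, edgeR called 0 higher than in plain APTKA medium and 3 lower. These were Mcm2, Mcm3 (log2 fold change -0.38) and Pola1 (-0.47). DESeq2 called 8 lower and 0 higher. At an unadjusted p below 0.05 edgeR and DESeq2 each had 23 lower and 0 higher. In edgeR, 1861 of all 14820 tested genes met that level, in either direction. Mcm2 remained above the untreated level, at 27.4 ± 2.004 CPM in irradiated APTKA medium, 38.7 ± 1.52 CPM in plain APTKA medium and 20.4 ± 1.47 CPM in untreated fibroblasts. Psd2 and Prss35 were lower by log2 fold changes of -0.54 and -0.52. Several of these calls did not hold with 1 library fewer, most of them in most of the omissions. The log2 fold change of Pola1 stayed within -0.491 to -0.425 over its 8 omissions. Pola1 lost its call in each of the 8 omissions of 1 library, Mcm3 in the 7 other than plain APTKA library I, Cdca2 in the 7 other than irradiated APTKA library II, G6pdx and Prss35 without plain APTKA library II, III or IV or irradiated APTKA library I, III or IV, Psd2 without library II, III or IV of either group, Hist1h1a without plain APTKA library III or irradiated APTKA library I, III or IV, and Slc7a11 without irradiated APTKA library I. Their adjusted p-values were then 0.0501 to 0.157.

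**Figure D5:**
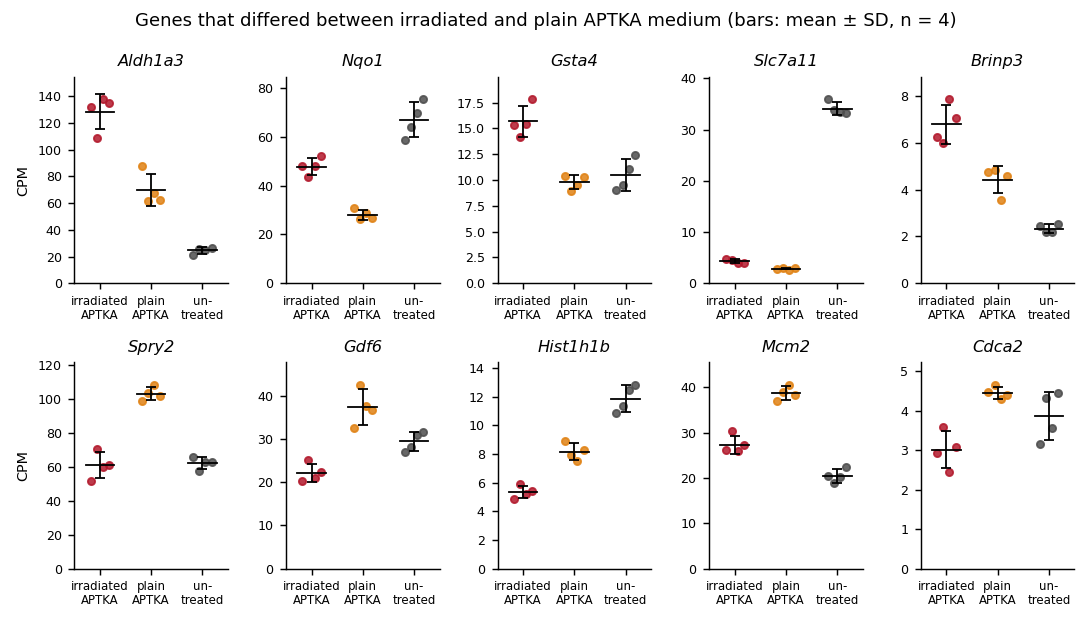
Levels in CPM of 10 genes that differed between irradiated and plain APTKA medium, by library, with irradiated APTKA medium on the left (red), plain APTKA medium in the middle (orange) and untreated fibroblasts on the right (grey). Axes start at 0 and bars give the mean ± SD of 4 libraries. Spry2 in irradiated APTKA medium lies at the untreated level, and Slc7a11 lies far below it in both media.

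Against irradiated APTK medium, from the other organoids in the same irradiated arm, 9090 genes changed (61.3%), 4468 of them higher in irradiated APTKA medium (30.1%) and 4622 lower (31.2%). Irradiated APTK library II stood apart from its group on the third principal component, and without it the count was 9169. Saa3 had 42.2, 63.6, 36.1 and 19.5 CPM in irradiated APTKA medium and 0.0550, 0.0573, 0.0351 and 0.0781 CPM in irradiated APTK medium, a log2 fold change of 9.38 (adjusted p = 1.60e-07, SE 0.902). Cxcl1 averaged 82.9 ± 5.15 CPM and 5.64 ± 1.56 CPM in these media, Cxcl5 121 ± 13.99 CPM and 7.38 ± 1.36 CPM, Il1rl1 52.3 ± 5.55 CPM and 2.63 ± 0.493 CPM, and Atf3 19.7 ± 3.53 CPM and 1.25 ± 0.469 CPM. In the other direction Mgp, a matrix inhibitor of calcification, had 3.45 ± 1.10 CPM in irradiated APTKA medium and 98.7 ± 52.8 CPM in irradiated APTK medium, Iigp1, an interferon-inducible GTPase, 0.715 ± 0.242 CPM and 22.6 ± 8.47 CPM, and Ackr4 0.880 ± 0.270 CPM and 37.4 ± 15.04 CPM. Stmn4 was higher by log2 6.75, and Abca8a, Cldn1 and Ifit3b were lower by log2 fold changes of -4.78, -4.19 and -4.12. This comparison shares its irradiated APTKA libraries with the one against untreated fibroblasts.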

How the data were processed

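RNA was extracted with a Qiagen column kit, and the sequenced material was polyadenylated RNA, per the labels' protocols. For each library the authors deposited raw counts, whole numbers of reads for every Ensembl gene. According to the submitters' processing notes, featureCounts 1.5.0-p1, STAR 2.5.2a and bcl2fastq 2.20.0.422 were used with mm10, while annotation release, strand setting and handling of multiply matching reads are not given. All 20 libraries of the series' 5 groups were read, and 47224 of 47729 identifiers were matched to symbols through GENCODE M21. No count row lacked an identifier. From the counts, TMM factors, a filter on low counts by group (edgeR filterByExpr) and quasi-likelihood fits were computed in R 4.3.3 with edgeR 4.0.16, with 1 mean per group and 15 residual degrees of freedom; p-values were adjusted by Benjamini-Hochberg over 14820 genes in each of 3 comparisons. A gene passes the filter through any group where it is high, so list counts describe the members tested and not all members. SE is the log2 fold change divided by the root of F. Intervals and the floor of 3 reads cover counting error only.

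Alternatives were relative log expression and upper quartile scaling, no expression filter, a replicate block, DESeq2 1.42.0, a fit of the 2 groups alone and omission of each library. In simulated counts on 14820 genes for irradiated APTKA medium against untreated fibroblasts, 46% of 50 genes changed 1.3-fold, 78% of 50 changed 1.5-fold, 88% of 50 changed 2-fold and 92% of 50 changed 4-fold were recovered, with 4 false calls among 156. Only these genes were changed in the simulation, and all others had the same mean in every group. In the data 61.0% of tested genes were called, so these rates do not carry over to the comparison. The members, the 48 gene lists, the 11 marker lists and the tests were chosen with earlier results of these data known. Genes are named by rule: the 14 largest rises and 14 largest falls with groups that do not overlap and a mean log2 CPM (offset 0.5) of at least 2, up to 4 rises and 4 falls of each list, 23 genes of interest, 8 rises and 8 falls against plain APTKA medium, 6 of each against irradiated APTK medium, and the 10 most abundant changed at least 2-fold; a few list members that did not pass, or whose partner is named, were chosen after their values were seen. Not every gene the rule allows is printed, and the results of a few are not reported here. Motif searches used RefSeq windows of GRCm38.p6, with letters shortened to 9 bases after longer forms had been searched, and figures were drawn with matplotlib 3.10.9. The labels do not say whether replicate numbers pair libraries across groups, and the main fit does not use them. The closing part gives a fit with them as a block.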

Additional observations from a re-analysis of the deposited data

Results flagged for a closer look

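In 23 of 532 groups of 4 libraries examined over 268 named genes, 1 library stood far from the other 3, its gap to the nearest exceeding the 95% critical share of the group's range in Dixon's test. Chance alone gives about 1 in 20 such groups. Of the genes below, none that was called against untreated fibroblasts lost its call or changed direction when any 1 library of either group was left out.

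Among irradiated APTKA libraries, library IV was apart for Dact1 at 32.1 CPM against 40.7 to 42.3 CPM in the others, for Fmod at 0.788 CPM against 1.44 to 1.55 CPM, for Herpud1 at 54.7 CPM against 57.2 to 57.6 CPM, for Psmb8 at 1.86 CPM against 2.99 to 3.13 CPM and for Tgfbr1 at 60.3 CPM against 69.9 to 71.3 CPM. Library III was apart for Gclm at 16.9 CPM against 18.7 to 18.8 CPM and for Junb at 135.7 CPM against 116.6 to 118.4 CPM. Library II was apart for C4b at 0.155 CPM against 0.0358 to 0.0388 CPM and for Stat2 at 19.9 CPM against 14.4 to 15.3 CPM, and library I for Col12a1 at 1998 CPM against 1721 to 1757 CPM.

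Among untreated libraries, library IV was apart for Abcc9 at 15.6 CPM against 17.9 to 18.4 CPM, for Dcn at 2151 CPM against 2585 to 2647 CPM, for Ptgs2 at 534.6 CPM against 449.9 to 457.8 CPM, for Rspo3 at 64.9 CPM against 76.6 to 78.0 CPM and for Trib3 at 114 CPM against 172 to 183 CPM, and it held the 1 read of Cxcl3, at 0.0373 CPM. Library II was apart for Ccn5 at 729 CPM against 810.2 to 814 CPM, for Cxcl1 at 2.93 CPM against 3.32 to 3.36 CPM, for Cxcl12 at 179.8 CPM against 139 to 142 CPM and for Dact1 at 13.1 CPM against 12.2 to 12.3 CPM. Library III was apart for Ccng1 at 1447 CPM against 1340.0 to 1353 CPM and held the 1 read of Nos2, at 0.0391 CPM, and library I for Ifit3b at 18.9 CPM against 13.1 to 13.9 CPM.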

How the results depend on the processing

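For irradiated APTKA medium against untreated fibroblasts, the 9036 calls became 8950 to 9215 under other scalings, filters and models and 8575 to 8754 with 1 library left out. Calls upward outnumbered those downward, 4595 to 4441, except under upper quartile scaling (4096 to 4980) and in the fit of the 2 groups alone (4552 to 4622). Of 935 distinct list members, the 679 called became 675 to 684, and 657 to 670 with 1 library left out. Of 256 named genes, 250 kept their direction and their side of 5% wherever they were tested, and C4b, Csf2, Nos2 and Tnip3 were not tested in the fit of the 2 groups alone. With no expression filter, Spry2 turned to 0.007, and under upper quartile scaling H2-K1 turned to -0.0035 and Tgfb1 to -0.0189, none of them called. With 1 library left out, Spry2 spanned -0.111 to 0.0378, Mki67 -0.1799 to 0.0268 and Tgfb1 -0.0484 to 0.1425. Ccng1 passed 5% under upper quartile scaling, in DESeq2 and in the fit of the 2 groups alone (adjusted p = 0.00676 to 0.0408), and Oasl1 without a filter and in that fit. The cause of these shifts was not tested.

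Against plain APTKA medium, the 108 calls, 67 higher and 41 lower, became 316 (220 and 96) with no expression filter, 307 (196 and 111) in DESeq2, 512 (287 and 225) in the fit of the 2 groups alone, and 34 to 146 (23 to 103 and 9 to 43) with 1 library left out; the 9 genes past 2-fold became 13 with no expression filter, 11 in the fit of the 2 groups alone, 10 in DESeq2, 6 with the replicate block and 3 to 10 with 1 library left out. The cause was not tested. Isg15 passed 5% there in DESeq2 and in the fit of the 2 groups alone, and Tnfaip3 without a filter. Against irradiated APTK medium the 9090 calls became 8233 to 9201, and 8623 to 9169 with 1 library left out.

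The labels do not say whether libraries with the same number in irradiated APTKA medium and untreated fibroblasts are paired. Deviations from the group means correlated at 0.0354 to 0.073 for the same number and at -0.1247 to 0.0753 for different numbers. Not every library correlated best with its own number. With the number as a replicate block, 8950 genes were called against untreated fibroblasts, 82 against plain APTKA medium and 9031 against irradiated APTK medium, and 675 list members. Psd2 lost its call with the block. The labels give no extraction or sequencing batch. Genes of a few reads, such as Csf2, Tnip3 and Nos2, carry wide counting error.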

Other observations

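Some list members fell under the filter on low counts although their reads differed between the groups. Cxcl11, a T cell attractant that interferon induces, had 56 reads over the 4 irradiated APTKA libraries and 0 over the untreated ones, and the siderophore-binding protein gene Lcn2 had 37 and 0. Ccl20, which draws cells with the receptor CCR6, had 27 reads in irradiated APTKA medium and 3 in untreated fibroblasts. In the other direction Lgr5, the receptor for R-spondins, had 7 reads in irradiated APTKA medium and 47 in untreated fibroblasts, the gene of the secreted Wnt-binding protein Sfrp2 had 5 and 37, and Pi16, a marker of adventitial fibroblasts, had 9 and 34. These genes were not tested.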
